A study of Homo sapiens with 4 samples.

Results

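The endoplasmic reticulum (ER) folding and quality control genes examined here are 44 genes out of the 20263 in the count table. They were taken by name in 6 roles: luminal chaperones and cochaperones, the calnexin and calreticulin cycle, isomerases, stress sensors and their processing enzymes, ER-associated degradation (ERAD), and the translocon. The cells were HCT116, an established human colorectal carcinoma line, treated for 24 h with HJJ_3_5, a piperine derivative per the series title (2 samples), or with the DMSO control (2 samples). No source used here states the concentration of HJJ_3_5, and all 4 samples are 1 cell line in the same medium with serum. RNA was sequenced as mRNA libraries, and the 4 libraries held 29211120 to 36455176 counts. The labels do not say whether the 2 samples of a group were separate cultures, so the p-values measure no more than how far these samples lie apart, and that spread may be technical.

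Proteins that enter the secretory pathway fold in the ER with the help of chaperones, lectins and disulfide isomerases, and those that fail are sent back to the cytosol and degraded (ERAD). When unfolded proteins accumulate, the sensors ATF6, IRE1 (the gene ERN1) and PERK (the gene EIF2AK3) start the unfolded protein response. ATF6, cut by proteases in the Golgi, and XBP1, spliced by IRE1, are transcription factors that raise chaperone and ERAD genes. PERK slows translation and raises ATF4 and, through it, DDIT3 (CHOP).

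HSPA5 and HSP90B1 fell in HJJ_3_5 cells to 0.312 and 0.316 times their DMSO level, ATF6 and HERPUD1 fell to 0.353 and 0.360 times theirs, WFS1 rose, and 33 of the 43 tested genes were not called. HSPA5 and HSP90B1, which encode the chaperones BiP and GRP94, together reached 1302 and 1895 CPM (counts scaled to library size) in the HJJ_3_5 libraries, against 4980 and 5220 CPM in the DMSO libraries. The other 42 genes together reached 8566 and 8626 CPM in HJJ_3_5 cells, against 10072 and 9707 CPM in DMSO cells. The whole set took up 1.05 and 1.13% of all counts in HJJ_3_5 cells, against 1.43 and 1.38% in DMSO cells. As a share of all counts, these 42 genes took up 0.907 and 0.926% in HJJ_3_5 cells, against 0.954 and 0.900% in DMSO cells. The groups overlapped in this share of the 42 genes, and did not overlap in the other sums. Less of an mRNA per cell and fewer cells that hold it cannot be told apart in bulk RNA.

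Of the 43 genes with enough counts to test, 8 fell and 2 rose, where a call means an adjusted p below 0.05 in edgeR's quasi-likelihood test with Benjamini-Hochberg adjustment over all 14180 genes tested. HSPA5, HSP90B1, MANF, PDIA3, FKBP14, ATF6, EDEM1 and HERPUD1 fell, and WFS1 and SEC61A1 rose. The share that fell was 18.6%, against 8.27% of all genes tested, and the share that rose was 4.65%, against 9.17%. In either direction 23.3% of the set was called, against 17.4% of all genes. The log2 fold change was negative for 30 of the 43, with a median of -0.27, against a median of 0.00 over all genes. Both HJJ_3_5 libraries lay below both DMSO libraries for 22 genes (51.2%, against 33.9% of all genes) and above them for 10 (23.3%, against 35.1%). For the other 11 the groups overlapped. The remaining gene, DERL3, had 4 and 6 counts in the HJJ_3_5 libraries and 0 and 4 in the DMSO libraries and was not tested.

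The calls rested on few samples. Without HJJ_3_5 2 the calls of the set were kept. Without HJJ_3_5 1, without DMSO 1 or without DMSO 2 all of them were lost, and hardly any of all genes was called either. Each of these fits leaves 1 sample in a group. The set's median log2 fold change was -0.25 without HJJ_3_5 1, -0.22 without DMSO 1 and -0.27 without DMSO 2. Over all genes it was 0.00, 0.01 and 0.01. Without HJJ_3_5 2 it was -0.30 in the set and -0.01 over all genes. Scaling by library totals in place of TMM factors moved the median log2 fold change of all genes up by 0.187, and the set's median was then -0.09.

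**Figure D1:**
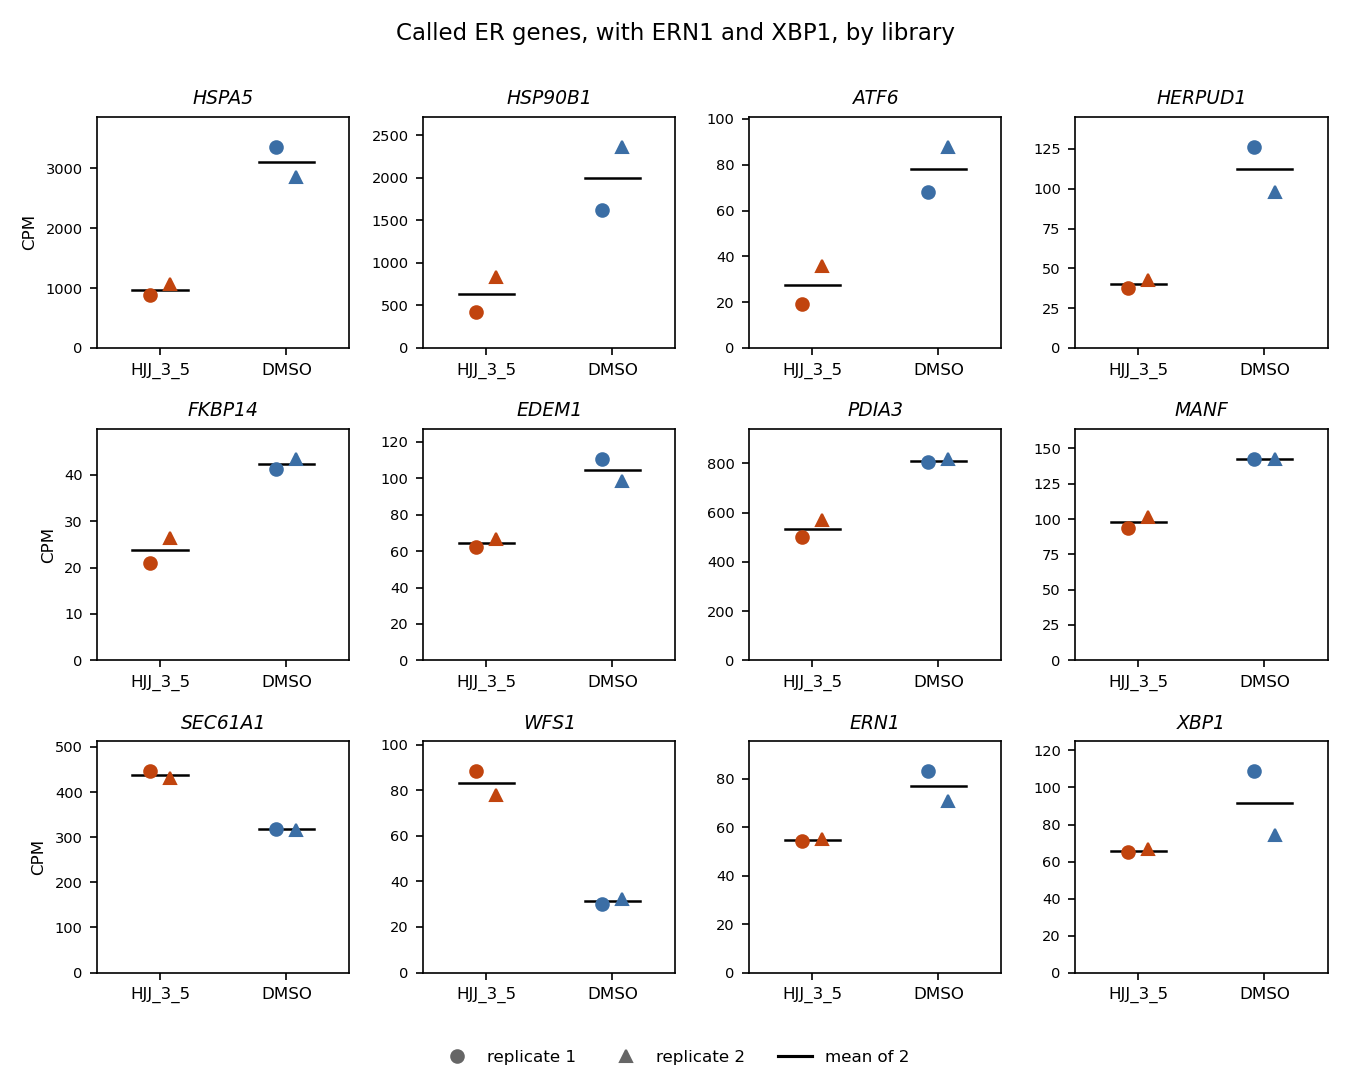
CPM of the 10 called genes and of ERN1 and XBP1 on a linear axis, with a point for each library. In each panel HJJ_3_5 is left of DMSO and a bar gives the mean of 2 samples. The points of the groups do not overlap in any panel, and the HJJ_3_5 points are the higher ones for WFS1 and SEC61A1 alone.

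**Figure D2:**
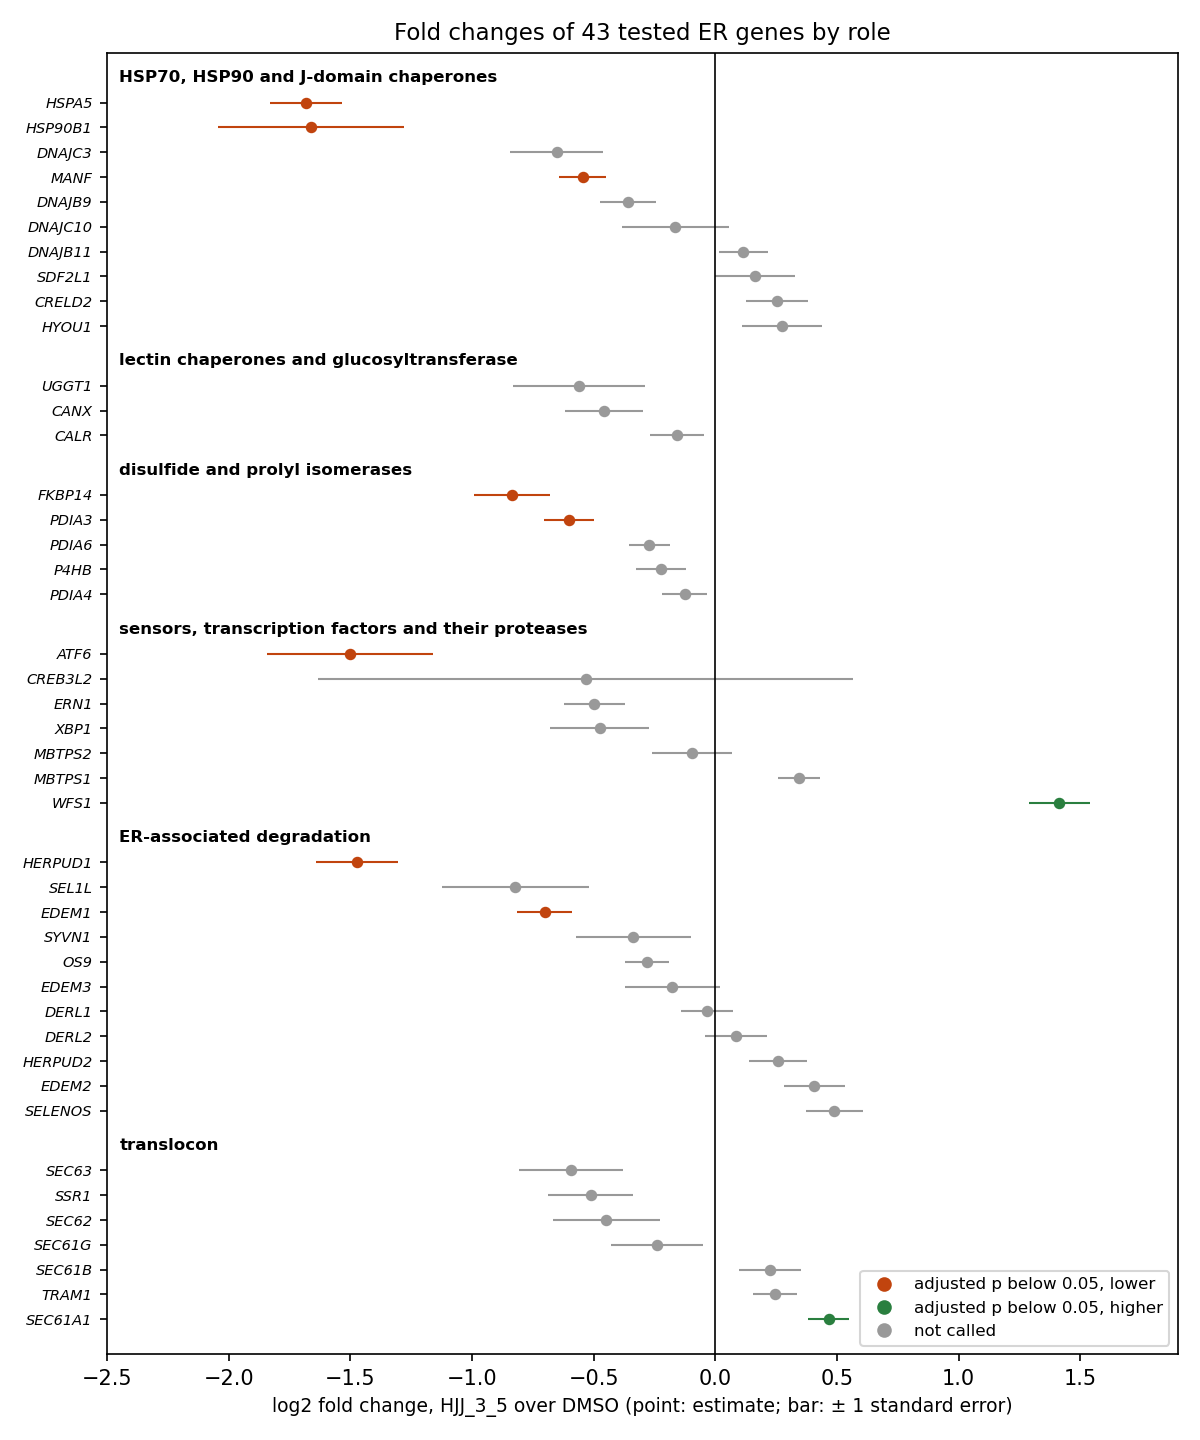
Log2 fold change of HJJ_3_5 over DMSO (horizontal axis) for the 43 tested genes, grouped by role, with bars for the standard error and called genes in colour. HSPA5, HSP90B1, ATF6 and HERPUD1 lie at -1.47 or lower, WFS1 is alone above 1, and CREB3L2 has the widest error.

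The promoters of several of these genes hold the ER stress response elements through which ATF6 and XBP1 are known to act, and these are shown because HSPA5, HSP90B1 and HERPUD1, which fell, and genes that did not pass the test carry the same elements. ATF6, which fell as well, had no match to any motif searched. RefSeq promoter windows (GRCh38.p14) hold the 250 bases before each listed start and a short stretch after it. They were available for 39 of the 44 genes and were searched whole, on both strands, in the set and in all genes. Each gene of the set with a match had it before a listed start. The motifs were ERSE (a CCAAT box, a gap of 9 bases and a CCACG box), ERSE-II (ATTGG, 1 base and CCACG), the XBP1-type element UPRE (TGACGTGG) and the ATF4-type element CARE (TGATGCAA). ERSE was found in 7 of the 39 (17.9%), against 0.0916% of 27305 genes, and ERSE-II in 3 (7.69%), against 0.0696%. UPRE was found in 3 of the 39 (DNAJC10, SEC62 and HYOU1, 7.69%, against 0.927%) and CARE in HERPUD1 alone (2.56%, against 1.08%). The set was taken by name from genes of a kind that ATF6 and XBP1 are known to raise. These shares therefore describe the choice of genes and test nothing. The matches to ERSE and ERSE-II are given below in capitals with 8 flanking bases on each side, read 5' to 3' on the strand of the gene. Where the capitals begin with CGTGG the motif lies on the other strand.
HSPA5, ERSE, chr9:125241383-125241417, minus strand: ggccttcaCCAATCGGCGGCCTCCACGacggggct
HSP90B1, ERSE, chr12:103930208-103930242, plus strand: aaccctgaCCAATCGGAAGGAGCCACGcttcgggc
HSP90B1, ERSE, chr12:103930313-103930347, plus strand: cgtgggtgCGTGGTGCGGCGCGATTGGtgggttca
HYOU1, ERSE-II, chr11:119057372-119057398, minus strand: ccccgtgaCGTGGTCCAATcccaggcc
HYOU1, ERSE-II, chr11:119057266-119057292, minus strand: gcctgggaCGTGGTCCAATgagtacgc
SDF2L1, ERSE-II, chr22:21642106-21642132, plus strand: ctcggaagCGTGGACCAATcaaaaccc
CRELD2, ERSE, chr22:49918546-49918580, plus strand: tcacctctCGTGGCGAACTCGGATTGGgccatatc
CALR, ERSE, chr19:12938376-12938410, plus strand: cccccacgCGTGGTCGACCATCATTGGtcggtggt
CANX, ERSE, chr5:179698770-179698804, plus strand: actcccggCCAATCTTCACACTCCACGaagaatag
PDIA6, ERSE, chr2:10812845-10812879, minus strand: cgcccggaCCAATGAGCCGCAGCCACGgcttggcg
XBP1, ERSE, chr22:28800595-28800629, minus strand: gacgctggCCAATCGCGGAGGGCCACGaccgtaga
HERPUD1, ERSE-II, chr16:56932017-56932043, plus strand: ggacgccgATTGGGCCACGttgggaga
The distances before the start ran from 225 bases (the outer end in CALR) to 34 bases (the inner end in XBP1). A match before any listed start was counted, and CANX had 4 starts listed, PDIA6 2 and XBP1 2. The CANX and PDIA6 matches belong to inner starts, far inside the genes. In GENCODE 29, CANX begins at 179678628 and PDIA6, on the minus strand, at 10837977. In HSPA5 the match lay 66 to 48 bases before the start, in HERPUD1 117 to 107. HSP90B1 carried 2 ERSE matches and HYOU1 2 ERSE-II matches, the outer of which shares bases with the UPRE match of that gene.

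Genes with the same element had different values. Of the 10 genes with ERSE or ERSE-II, HSPA5, HSP90B1 and HERPUD1 fell (30%, against 8.27% of all genes tested) and none rose (against 9.17%), and 7 had a negative log2 fold change, with a median of -0.37 and a range of -1.68 to 0.27. By edgeR at an unadjusted p below 0.05, 5 were lower and 0 higher, where 2765 and 2813 of all 14180 genes were. DESeq2 and limma-voom also called 3 lower and 0 higher. Over all genes DESeq2 called 2101 of 16862 lower and 1675 higher, and limma-voom 1212 of 14180 lower and 1281 higher. Of the 29 genes with a promoter and neither motif, ATF6, EDEM1 and MANF fell (10.3%) and 2 rose (6.90%), 20 were negative and the median was -0.24. The difference between these 2 groups was not tested. PDIA3 and FKBP14, which also fell, and DERL1, DERL3 and TRAM1 had no promoter to search and stand in neither group. Outside the set, 20 tested genes with a match had a median of -0.12, with ALG12 higher and ZNF143 lower. ALG12 shares exon bases with CRELD2 on the opposite strand.

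**Figure D3:**
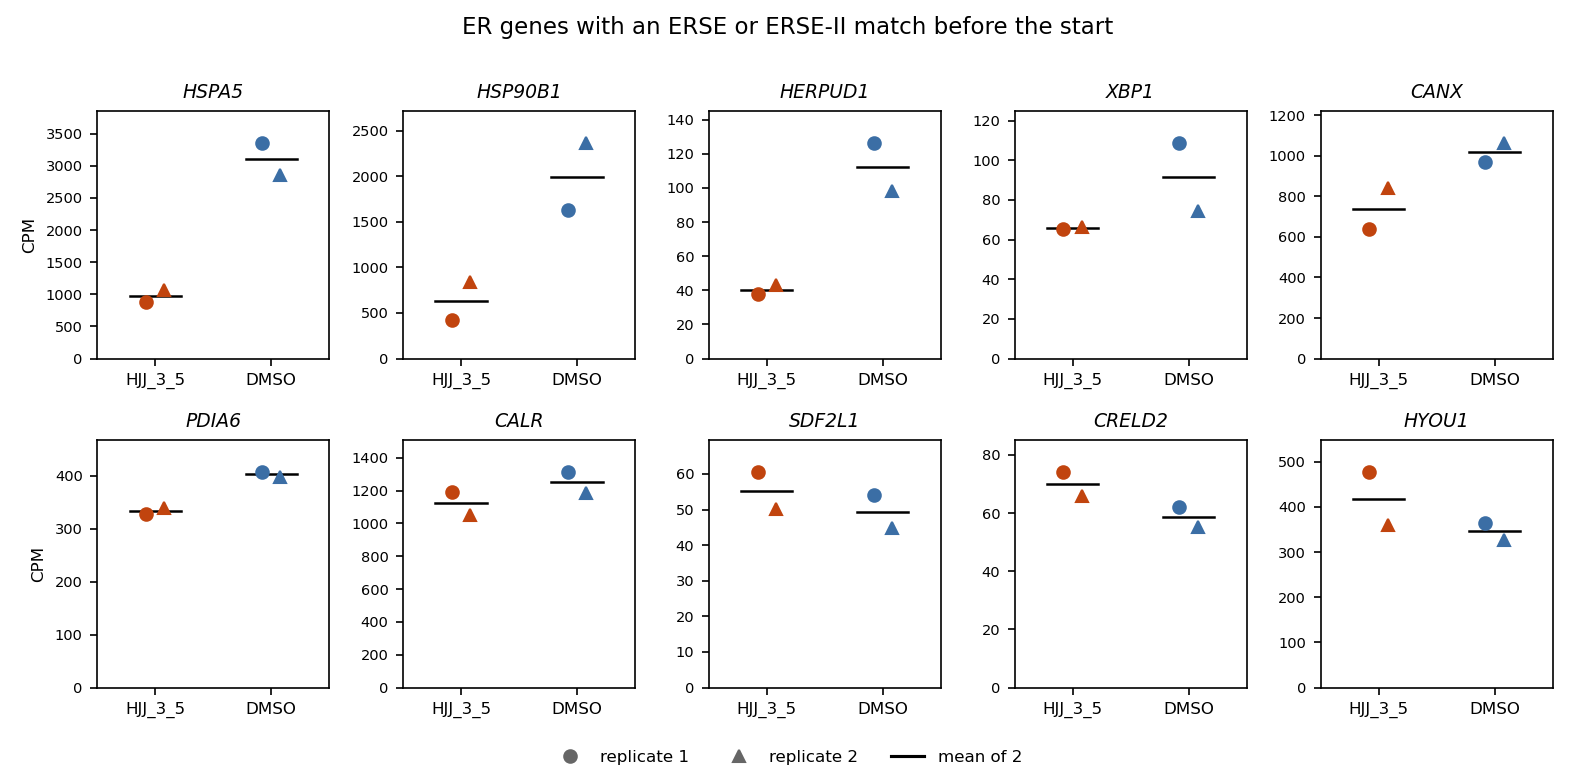
CPM of the 10 genes with ERSE or ERSE-II in the 250 bases before a listed start, on a linear axis. Each library has a point and each group a bar for its mean. The log2 fold changes of HSPA5, HSP90B1 and HERPUD1 lay between -1.68 and -1.47 and those of the other 7 between -0.48 and 0.27.

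For comparison the whole 250 bases are printed for HSPA5, the ERSE gene with the largest fall, and WFS1, the gene with the largest rise, which had no match to any of the 4 motifs. Capitals mark the ERSE match in HSPA5. The window of HSPA5 is chr9:125241344-125241593 on the minus strand and that of WFS1 is chr4:6269600-6269849 on the plus strand (RefSeq, GRCh38.p14), both printed 5' to 3' on the strand of the gene and ending at the base before the start.
HSPA5 promoter: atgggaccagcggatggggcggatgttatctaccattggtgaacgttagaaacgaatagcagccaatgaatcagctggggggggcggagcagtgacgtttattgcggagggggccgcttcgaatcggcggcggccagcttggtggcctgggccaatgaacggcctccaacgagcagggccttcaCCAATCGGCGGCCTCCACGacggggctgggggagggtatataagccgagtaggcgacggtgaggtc
WFS1 promoter: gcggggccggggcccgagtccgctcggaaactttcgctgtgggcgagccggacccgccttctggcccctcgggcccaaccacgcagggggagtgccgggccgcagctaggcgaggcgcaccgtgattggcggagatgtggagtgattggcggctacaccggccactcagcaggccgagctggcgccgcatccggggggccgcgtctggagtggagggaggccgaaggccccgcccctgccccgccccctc

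The luminal chaperones and their cochaperones held the largest fall. HSPA5 (chromosome 9, 125234853 to 125241330 in GENCODE 29 on GRCh38, minus strand) encodes BiP, the ATP-driven Hsp70 chaperone of the ER that also holds the stress sensors inactive. It had 876 and 1061 CPM in the HJJ_3_5 libraries, against 3356 and 2857 CPM in the DMSO libraries. Both treated libraries lay far below both controls, with means of 968 ± 131 CPM in HJJ_3_5 cells and 3106 ± 353 CPM in DMSO cells (SD, n = 2 each). The log2 fold change was -1.68 ± 0.15 (SE), with an edgeR adjusted p of 0.0244, and it stayed between -1.83 and -1.55 when any library was left out. The adjusted p was 0.0335 to 0.0722 in those 4 fits.

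HSP90B1 (chromosome 12, 103930107 to 103953645) encodes GRP94, the Hsp90 of the ER, which finishes the folding of integrins and Toll-like receptors. It had 426 and 835 CPM in the HJJ_3_5 libraries, against 1624 and 2364 CPM in the DMSO libraries. The groups did not overlap, but HJJ_3_5 1 and HJJ_3_5 2 stood well apart, as did the DMSO libraries. The log2 fold change was -1.66 ± 0.38, with an edgeR adjusted p of 0.0498, and with library totals the adjusted p was 0.0512. It ran from -2.23 to -1.26 when any library was left out. HSP90B1 shares exon bases with C12orf73 on the opposite strand, and no source used here says whether the counting used strand.

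MANF, a small luminal protein that binds BiP and can be secreted, fell less. It had 94.0 and 101 CPM in HJJ_3_5 cells, against 142 and 142 CPM in DMSO cells, a log2 fold change of -0.55 ± 0.10 with an edgeR adjusted p of 0.0349. The replicates lay close together within each group, and with library totals the log2 fold change was -0.36 and the adjusted p 0.0646.

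The other 7 chaperone genes were not called. DNAJC3 (p58IPK), a J-domain cochaperone that brings unfolded proteins to BiP, had 60.0 and 85.3 CPM in HJJ_3_5 cells, against 113 and 115 CPM in DMSO cells, with a log2 fold change of -0.65 ± 0.19 and an edgeR adjusted p of 0.0770. DNAJB9 (ERdj4), an XBP1 target that works with BiP in ERAD and at IRE1, had 44.1 and 44.8 CPM in HJJ_3_5 cells, against 59.9 and 54.2 CPM in DMSO cells, with an adjusted p of 0.0905. In both genes the treated libraries lay below the controls. HYOU1 (GRP170), a nucleotide exchange factor of BiP, had 478 and 359 CPM in HJJ_3_5 cells, against 365 and 327 CPM in DMSO cells, and the groups overlapped. SDF2L1, which keeps BiP clients soluble together with DNAJB11, also overlapped, with 60.6 and 50.02 CPM in HJJ_3_5 cells and 54.1 and 44.7 CPM in DMSO cells. The log2 fold changes of HYOU1, SDF2L1, CRELD2 and DNAJB11 were 0.27 ± 0.17, 0.16 ± 0.16, 0.25 ± 0.13 and 0.12 ± 0.10. CRELD2, a stress-induced luminal protein, shares exon bases with ALG12. DNAJC10 (ERdj5), a reductase that opens disulfides for ERAD, had a log2 fold change of -0.16 ± 0.22; with the GC and length trend removed it was 0.53, with an edgeR adjusted p of 0.0318. As a role, 6 of the 10 chaperone genes were negative with a median of -0.26, or -0.07 with library totals, where all genes had a median of 0.19.

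HSPA5 moved in the order of abundance as well. Per transcript length, as TPM (computed from the counts over the longest protein-coding transcript), HSPA5 averaged 602 ± 104 TPM in HJJ_3_5 cells and 1649 ± 205 TPM in DMSO cells (SD, n = 2 each). Among the 44 genes its rank was 3 and 4 in the HJJ_3_5 libraries, against 1 and 2 in the DMSO libraries. HSP90B1 averaged 539.6 ± 266 TPM in HJJ_3_5 cells and 1444 ± 364 TPM in DMSO cells. P4HB averaged 1461 ± 84.3 TPM in HJJ_3_5 cells and 1460.5 ± 33.9 TPM in DMSO cells, and CALR 1426 ± 72.6 TPM in HJJ_3_5 cells and 1363 ± 112 TPM in DMSO cells. In DMSO cells the lower HSPA5 library (1504 TPM) lay just above the higher P4HB library (1484 TPM), and P4HB, HSP90B1 and CALR overlapped. In HJJ_3_5 cells P4HB and CALR lay above HSPA5 and HSP90B1 in both libraries, while P4HB overlapped CALR and HSPA5 overlapped HSP90B1.

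The calnexin and calreticulin cycle, which holds glycoproteins through a trimmed glucose, had 0 called genes by edgeR, DESeq2 and limma-voom, and 1 lower by edgeR at an unadjusted p below 0.05. CANX, the membrane lectin, had 639 and 841 CPM in HJJ_3_5 cells, against 970.3 and 1064 CPM in DMSO cells, with a log2 fold change of -0.46 ± 0.16 and an edgeR adjusted p of 0.107. UGGT1, which puts the glucose back on misfolded glycoproteins, had 54.2 and 88.7 CPM in HJJ_3_5 cells, against 93.9 and 117 CPM in DMSO cells, with a log2 fold change of -0.56 ± 0.27 and an adjusted p of 0.198. In both genes the treated libraries lay below the controls and HJJ_3_5 2 lay above HJJ_3_5 1. CALR, the soluble lectin, overlapped between the groups, at 1192 and 1050.2 CPM in HJJ_3_5 cells and 1313 and 1187 CPM in DMSO cells. Its log2 fold change was -0.16 ± 0.11, and -0.41 after the GC and length trend was taken out, where edgeR called it lower with an adjusted p of 0.0201; UGGT1 was then at -0.01.

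Among the 5 isomerases both HJJ_3_5 libraries lay below both DMSO libraries for every gene, against 33.9% of all genes tested. Of the 5, 2 passed the test as lower (40%, against 8.27% of all genes). PDIA3 (ERp57), the disulfide isomerase that works with CALR and CANX, had 499 and 569 CPM in HJJ_3_5 cells, against 805 and 818 CPM in DMSO cells. Its log2 fold change was -0.60 ± 0.10, with an edgeR adjusted p of 0.0335 and of 0.0532 with library totals, and it shares exon bases with ELL3 on the opposite strand. FKBP14, a prolyl isomerase of collagen folding, had 21.0 and 26.3 CPM in HJJ_3_5 cells, against 41.3 and 43.4 CPM in DMSO cells, a log2 fold change of -0.84 ± 0.16 with an adjusted p of 0.0369. The disulfide isomerases PDIA6, P4HB and PDIA4 were not called, with log2 fold changes of -0.27 ± 0.08, -0.22 ± 0.10 and -0.13 ± 0.09. The role had a median of -0.27, and of -0.09 with library totals, where PDIA4 was at 0.06 and all genes had a median of 0.19. After the GC and length trend was taken out the median of the role was -0.43 (all genes -0.05). P4HB (-0.54, edgeR adjusted p 0.0167) and PDIA4 (-0.33, adjusted p 0.0446) were then also called lower.

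Among the 7 stress sensors and their processing enzymes, the extremes ran in opposite directions. ATF6 (chromosome 1, 161766294 to 161964070), the sensor that is cut in the Golgi to free a transcription factor, had 19.1 and 35.9 CPM in HJJ_3_5 cells, against 68.2 and 87.9 CPM in DMSO cells. The groups did not overlap, although HJJ_3_5 2 lay well above HJJ_3_5 1. The log2 fold change was -1.50 ± 0.34, with an edgeR adjusted p of 0.0496, or 0.0527 with library totals, and it ran from -2.03 to -1.12 when any library was left out. After the GC and length trend was taken out it was -1.09, with an adjusted p of 0.0337. Per length ATF6 averaged 8.98 ± 4.20 TPM in HJJ_3_5 cells and 21.6 ± 3.62 TPM in DMSO cells (SD, n = 2 each).

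WFS1 (chromosome 4, 6269849 to 6303265) encodes wolframin, an ER membrane protein mutated in Wolfram syndrome and known to promote the degradation of ATF6. It had 88.3 and 78.0 CPM in HJJ_3_5 cells, against 30.1 and 32.3 CPM in DMSO cells. Both treated libraries lay far above both controls and the replicates were close. The log2 fold change was 1.41 ± 0.13, with an edgeR adjusted p of 0.0244, and it stayed between 1.32 and 1.5 when any library was left out, with adjusted p from 0.0335 to 0.0846.

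ERN1 (IRE1), the sensor that splices XBP1 mRNA, missed the threshold in edgeR. It had 54.1 and 54.9 CPM in HJJ_3_5 cells, against 82.9 and 70.9 CPM in DMSO cells, with a log2 fold change of -0.50 ± 0.12 and an edgeR adjusted p of 0.0577. DESeq2 called ERN1 lower, with an adjusted p of 0.023. XBP1 had 65.1 and 66.5 CPM in HJJ_3_5 cells, against 109 and 74.3 CPM in DMSO cells, with a log2 fold change of -0.48 ± 0.20 and an adjusted p of 0.160. Both treated libraries lay below both controls in each gene, and for XBP1 DMSO 1 lay far above DMSO 2. Counts per gene do not show whether XBP1 mRNA was spliced.

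MBTPS1 (site-1 protease), which makes the first cut in ATF6 and also cuts the SREBP factors, had 316 and 302 CPM in HJJ_3_5 cells, against 243 and 244 CPM in DMSO cells, with an edgeR adjusted p of 0.0583, or 0.0487 after the GC and length trend was taken out. MBTPS2 (site-2 protease) overlapped, with a log2 fold change of -0.10 ± 0.16. CREB3L2, an ATF6-like factor of secretory cells, had 25.2 and 145 CPM in HJJ_3_5 cells, against 208 and 37.8 CPM in DMSO cells. Its libraries differed more within each group than between groups, and the log2 fold change of -0.53 ± 1.10 turned to 1.17 without DMSO 1 and to 0.23 without HJJ_3_5 1. The role had a median of -0.48, which was 0.07 without HJJ_3_5 1.

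The ERAD genes divided between the scaffold HERPUD1, the mannosidase-like EDEM1 and a larger number that were not called. HERPUD1 (chromosome 16, 56932048 to 56944863), a stress-induced membrane protein that assembles the HRD1 ligase complex, had 37.8 and 42.9 CPM in HJJ_3_5 cells, against 126 and 98 CPM in DMSO cells. Means were 40.3 ± 3.63 CPM in HJJ_3_5 cells and 112 ± 20.1 CPM in DMSO cells (SD, n = 2 each), with no overlap. The log2 fold change was -1.47 ± 0.17, with an edgeR adjusted p of 0.0273, and -1.65 to -1.28 when any library was left out. Its paralog HERPUD2 had 34.5 and 37.7 CPM in HJJ_3_5 cells, against 31.0 and 29.4 CPM in DMSO cells, with a log2 fold change of 0.26 ± 0.12 and an adjusted p of 0.188.

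EDEM1, which trims mannose to mark misfolded glycoproteins, had 62.0 and 66.6 CPM in HJJ_3_5 cells, against 111 and 98.8 CPM in DMSO cells, with a log2 fold change of -0.70 ± 0.11 and an edgeR adjusted p of 0.0317. With the GC and length trend removed it was -0.44, with an adjusted p of 0.062. Its paralogs did not pass the test: EDEM2 had a log2 fold change of 0.41 ± 0.12 with an adjusted p of 0.0833, and EDEM3 one of -0.18 ± 0.20 with groups that overlapped. The differences between paralogs were not tested.

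SEL1L, the adaptor of the HRD1 ligase, had 50.5 and 92.4 CPM in HJJ_3_5 cells, against 121 and 132 CPM in DMSO cells, with a log2 fold change of -0.82 ± 0.30 and an edgeR adjusted p of 0.119. In SEL1L both HJJ_3_5 libraries lay below both DMSO libraries, with HJJ_3_5 2 well above HJJ_3_5 1. SYVN1, the HRD1 ligase itself, had 99.6 and 64.1 CPM in HJJ_3_5 cells, against 109.9 and 96.7 CPM in DMSO cells, with groups that overlapped and an adjusted p of 0.342. SELENOS, the selenoprotein that anchors the VCP ATPase, had 76.6 and 67.3 CPM in HJJ_3_5 cells, against 51.4 and 51.1 CPM in DMSO cells, with a log2 fold change of 0.49 ± 0.12 and an adjusted p of 0.0547. After the GC and length trend was taken out edgeR called SELENOS higher (0.40, adjusted p 0.0363), and OS9 (-0.54, adjusted p 0.0217) and SYVN1 (-0.65, adjusted p 0.0495) lower. OS9, a lectin that reads the trimmed glycan, and the channel proteins DERL1 and DERL2 had log2 fold changes of -0.28 ± 0.09, -0.04 ± 0.11 and 0.09 ± 0.13. The 11 tested ERAD genes had a median of -0.18. With library totals it was 0.01, against 0.19 over all genes, so it stayed below that of all genes. It was 0.09 after the GC and length trend was taken out (all genes -0.05) and 0.03 without HJJ_3_5 1 (all genes 0.00). For these last shifts no direction is given for the role.

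At the translocon, the channel through which new chains enter the ER, SEC61A1 rose. This gene of the pore-forming subunit (chromosome 3, 128051641 to 128071683) had 446 and 432 CPM in HJJ_3_5 cells, against 319 and 316 CPM in DMSO cells. The groups did not overlap, the log2 fold change was 0.47 ± 0.08 and the edgeR adjusted p was 0.0358. With the GC and length trend removed it was 0.27, with an adjusted p of 0.057, and the gene shares exon bases with RUVBL1 on the opposite strand. The small subunits SEC61B and SEC61G had log2 fold changes of 0.23 ± 0.13 and -0.24 ± 0.19. SEC63, which recruits BiP to the channel, had 36.9 and 53.1 CPM in HJJ_3_5 cells, against 62.6 and 73.4 CPM in DMSO cells, with a log2 fold change of -0.59 ± 0.21 and an adjusted p of 0.115. Its partner SEC62 and the translocon-associated SSR1 and TRAM1 had log2 fold changes of -0.45 ± 0.22, -0.51 ± 0.17 and 0.25 ± 0.09. The median of the 7 genes was -0.24 and was 0.04 with the GC and length trend removed.

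Base composition moved with these differences. GC content is that of the longest protein-coding transcript in GENCODE 29. Spearman's rho between GC content and the log2 fold change was 0.41 over the 43 tested genes and 0.35 over the 14018 tested genes with a value, and with transcript length it was -0.39 over the set and -0.22 over all genes. These points share the same 4 libraries and are not independent. Replicates differed along GC as well, with a rho over all genes of -0.535 for HJJ_3_5 2 over HJJ_3_5 1 and -0.351 for DMSO 2 over DMSO 1. The 21 genes below the set's median GC had 6 lower calls and no higher one, and a median of -0.51. At an unadjusted p below 0.05 edgeR had 1 of them higher and 13 lower, where 2813 and 2765 of all 14180 genes were. DESeq2 and limma-voom called 0 of them higher, and 8 and 6 lower. Over all genes DESeq2 called 1675 of 16862 higher and 2101 lower, and limma-voom 1281 of 14180 higher and 1212 lower. For all low-GC genes, counts at the unadjusted p and by these other tools are not given here. Among all 6058 tested genes below the same GC content, edgeR called 11.8% lower and 4.23% higher at an adjusted p below 0.05, with a median of -0.22. The 22 genes at or above it had 2 in each direction and a median of -0.01, against 5.62% lower, 13.0% higher and a median of 0.15 among all 7960 such genes. With the trend along GC and length removed, HSPA5 was at -1.58, HERPUD1 at -1.5, HSP90B1 at -1.51 and WFS1 at 1.11, and all 4 were still called.

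**Figure D4:**
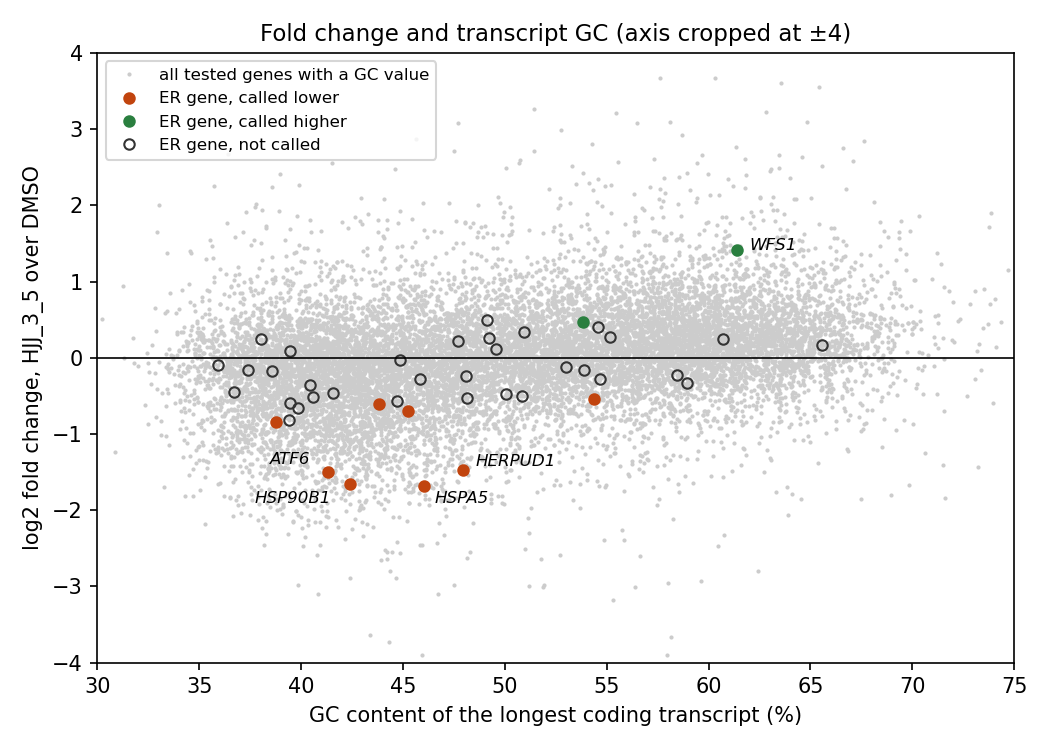
Log2 fold change of HJJ_3_5 over DMSO against transcript GC content (percent) for the 43 tested genes, called genes in colour. All tested genes with a GC value lie behind them in grey, and the vertical axis is cropped. HSPA5, HSP90B1, ATF6, HERPUD1 and WFS1 are named. Most low-GC genes of the set lie below 0, and WFS1 lies at the GC-rich end and high.

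Of 8 PERK branch genes outside the set, 1 rose (12.5%, against 9.17% of all genes tested) and 2 fell (25%, against 8.27%). DDIT3 (CHOP), its late transcription factor, had 22.8 and 22.1 CPM in HJJ_3_5 cells, against 91.0 and 67.0 CPM in DMSO cells. Its log2 fold change was -1.82 ± 0.19, with an edgeR adjusted p of 0.0273, and it shares exon bases with MARS and MBD6. EIF2AK3 (PERK) had 17.7 and 25.1 CPM in HJJ_3_5 cells, against 36.1 and 40.7 CPM in DMSO cells, with an adjusted p of 0.0564. ATF4 had 736 and 746 CPM in HJJ_3_5 cells, against 679 and 644 CPM in DMSO cells, with a log2 fold change of 0.16 ± 0.08 that was -0.13 with the GC and length trend removed. TRIB3, the ATF4 and CHOP target that binds AKT, rose, with 199.9 and 182 CPM in HJJ_3_5 cells, against 67.4 and 59.1 CPM in DMSO cells, and its log2 fold change was 1.59 ± 0.12 (edgeR adjusted p 0.0244). Of the regulatory subunits of the eIF2 alpha phosphatase, PPP1R15B fell, by a log2 fold change of -0.94 ± 0.11 with an adjusted p of 0.0273, and PPP1R15A had one of 0.39 ± 0.12 with an adjusted p of 0.0848.

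Over 132 further tested ER genes in 9 lists of neighbouring machinery, 10 rose (7.58%) and 12 fell (9.09%), with a median of 0.00. These shares were near those of all genes (9.17% and 8.27%). Among 23 tested oxidoreductases and isomerases 3 fell (13.0%) and 0 rose by edgeR, with 7 lower and 2 higher at an unadjusted p below 0.05. DESeq2 tested 26 and called 7 lower and 1 higher. Over all genes edgeR had 2765 of 14180 lower and 2813 higher at the unadjusted p, and DESeq2 called 2101 of 16862 lower and 1675 higher. ERO1A, the oxidase that recharges the disulfide isomerases, had 159.8 and 178 CPM in HJJ_3_5 cells, against 297 and 275 CPM in DMSO cells (log2 fold change -0.76 ± 0.11, edgeR adjusted p 0.0289). ERP44, which retains ERO1 in the early secretory pathway, had 24.0 and 32.5 CPM in HJJ_3_5 cells, against 60.3 and 73.9 CPM in DMSO cells, and a log2 fold change of -1.25 ± 0.21. Among 12 oligosaccharyltransferase genes, which attach N-glycans, 3 fell (25%) and 0 rose. Those that fell included RPN2 (-0.93 ± 0.15) and the catalytic subunit STT3A (-0.62 ± 0.09), which shares exon bases with CHEK1. Among 28 ERAD ligases and extraction factors 4 rose (14.3%) and 0 fell by edgeR. Those that rose included the conjugating enzyme UBE2J2 (0.86 ± 0.12) and the VCP cofactor NPLOC4 (0.56 ± 0.09). DESeq2 called 5 of the 28 higher and 2 lower, and at an unadjusted p below 0.05 edgeR had 6 higher and 3 lower. Of the 6 paralogs of the sensors, CREB3L1 and CREB3L4 rose (33.3%) by edgeR, by 1.48 ± 0.31 and 0.72 ± 0.13. DESeq2 called 1 of the 6 higher. CREB3L1 was under 2 CPM in all libraries. Among 10 ER calcium store genes 0 were called by edgeR or limma-voom and 2, both lower, by DESeq2, and at an unadjusted p below 0.05 edgeR had 1 higher and 2 lower.

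Of 9 colon epithelial markers, 6 were at 1 CPM or more in all libraries (CDH1, EPCAM, KRT8, KRT18, KRT19 and CDX2), CDX1 was at 0 and LGALS4 and VIL1 were near 0. Their summed level was 4938 to 5848 CPM in HJJ_3_5 cells and 4338 to 4768 CPM in DMSO cells. Of 8 markers of other cell types, COL1A1 alone reached 1 CPM in all libraries and PTPRC was at 0; their sum was 36.3 to 42.0 CPM in HJJ_3_5 cells and 65.8 to 67.9 CPM in DMSO cells. COL1A1 fell, with a log2 fold change of -0.82 ± 0.13, and CDX2 and KRT18 rose, by 0.83 ± 0.15 and 0.83 ± 0.12 (edgeR). Their part in the results above was not tested.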

How the data were processed

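RNA of HCT116 cells kept with HJJ_3_5 or DMSO for 24 h was sequenced as mRNA libraries, grouped by their labels (2 samples each). The table that the authors deposited holds whole-number read counts for each gene and library, not normalized. No source used here names the aligner, the counter, the annotation or the use of strand. Mouse builds (GRCm38 and mm10) stand in the submitters' processing notes, but the rows carry human Ensembl identifiers, so which build was used is unknown. Of 20263 rows, 3401 had no count. Positions, transcript length, GC content and overlapping exons came from GENCODE 29 (GRCh38), and promoters from RefSeq (GRCh38.p14).

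Genes were kept with filterByExpr (minimum count 10, minimum total 15), scaled by TMM and compared in edgeR 4.0.16 (R 4.3.3) with the quasi-likelihood test (two-sided, group only, 2 residual degrees of freedom), with Benjamini-Hochberg adjustment over 14180 genes. The biological coefficient of variation was 0.193 and the lowest adjusted p 0.0244. An SE is the log2 fold change divided by the square root of F. CPM use TMM-scaled library sizes, and replicates differed beyond sampling noise. The scripts were tested on simulated data.

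The genes, their roles and the 9 neighbouring lists were chosen with earlier results of these data known. Every gene of the set is described. Outside it, 5 genes (EIF2AK3, ATF4, DDIT3, ERO1A and PPP1R15A) were fixed, and each list gave up to 2 called genes per direction with the smallest p, of which some are named. The 15 alternatives included DESeq2 1.42.0 and limma 3.58.1 (voom); the GC and length trend was a spline with 4 degrees of freedom, fitted on genes of log2 CPM 3 or more and removed as an offset.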

Additional observations from a re-analysis of the deposited data

How the results depend on the processing

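All 10 calls of the set were kept with relative log expression factors, with DESeq2, with limma-voom, without the filter, with a minimum of 10 counts in each library, in both fits with a replicate block and without HJJ_3_5 2, and the 7 that share no exon bases with another gene were kept when overlapping genes were left out. With library totals 6 were kept (ATF6, HSP90B1, MANF and PDIA3 were lost), and with the GC and length trend removed 8 were kept (EDEM1 and SEC61A1 were lost). Over all genes, 1300 were higher and 1173 lower. Library totals gave 2614 higher and 818 lower, and DESeq2, which tested 16862 genes, gave 1675 higher and 2101 lower. Removing the GC and length trend gave 1470 higher and 1936 lower. The replicate block gave 2077 higher and 2540 lower, and the trend with the block 2002 and 2849. Leaving out 1 library gave 0 to 976 higher and 0 to 1716 lower. In the set, with 2 higher and 8 lower, library totals gave 6 higher and 4 lower, the trend 4 higher and 12 lower, the block 5 higher and 15 lower, and the trend with the block 7 and 13. DESeq2 gave 3 higher and 11 lower, with SELENOS added as higher and DNAJC3, ERN1 and SEL1L as lower. The trend added DNAJC10, MBTPS1 and SELENOS as higher and CALR, OS9, P4HB, PDIA4 and SYVN1 as lower, and the block added EDEM2, MBTPS1 and SELENOS as higher and CANX, DNAJC3, ERN1, PDIA6, SEC62, SEC63 and UGGT1 as lower. Leaving out 1 library gave 0 to 2 higher and 0 to 14 lower. At an adjusted p below 0.01, edgeR called 0 genes, higher or lower, in the set or over all, limma-voom called 0, and DESeq2 called 2436 genes, 10 of them in the set. At an unadjusted p below 0.05 edgeR had 2813 genes higher and 2765 lower, with 6 and 17 in the set. The causes were not tested.

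Samples with the same number share only that number: the labels give no pairing, and over all genes the replicate differences of the 2 groups correlated at 0.167 with 2 pairs.

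Signs turned for these log2 fold changes. With library totals they were DNAJC10 0.0245, CALR 0.0279, PDIA4 0.0596, MBTPS2 0.0909, EDEM3 0.0114 and DERL1 0.15. With the trend removed they were SDF2L1 -0.13, DNAJB11 -0.0023, DNAJC10 0.53, CRELD2 -0.0837, EDEM3 0.16, DERL1 0.091, SSR1 0.0388 and ATF4 -0.13, and with the trend and block SDF2L1 -0.13, DNAJB11 -0.0021, DNAJC10 0.53, CRELD2 -0.0849, EDEM3 0.16, DERL1 0.091, SSR1 0.0415 and ATF4 -0.14. Leaving out 1 library in turn gave ranges that crossed 0, CREB3L2 -2.30 to 1.17, DERL1 -0.11 to 0.0264, DERL2 -0.0092 to 0.18, DNAJC10 -0.49 to 0.0985, EDEM3 -0.45 to 0.0474 and MBTPS2 -0.29 to 0.0663. The tested genes of the set had at least 591 counts in every library.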

Other observations

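CREB3L2 stood out for libraries that crossed the groups, at 25.2 and 145 CPM in HJJ_3_5 cells, against 208 and 37.8 CPM in DMSO cells. Among 10721 genes with 10 CPM or more in their highest library, 4 had HJJ_3_5 2 and DMSO 1 both at least 3-fold above the other libraries (CREB3L2, FAM110A, IER2 and PRSS53). The other pairings of an HJJ_3_5 library with a DMSO library gave 3, 4 and 6 genes. CREB3L2 was chosen for this remark after its values were seen.

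Replicate gaps in the set were like those of all genes. The median absolute log2 ratio was 0.189 between the HJJ_3_5 libraries and 0.132 between the DMSO libraries over the 43 tested genes, against 0.192 and 0.149 over all 14180. Below the set's median GC the median log2 ratio of HJJ_3_5 2 over HJJ_3_5 1 was 0.40, and at or above it -0.09. Whether the replicate gaps along GC bear on the differences between groups was not tested.

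Among the neighbouring lists, all 6 paralogs of ATF6, the CREB3 factors and IRE1 had a positive log2 fold change, with a median of 0.57. Over all 14180 genes, 7106 were positive. The median GC of the paralogs was 58.6%, and all genes at or above the set's median GC (47.7%) had a median of 0.15. The part of GC in this was not tested. Of the 17 cochaperones and nucleotide exchange factors 7 were negative, with a median of 0.04. The 10 genes of the ER membrane protein complex, which inserts membrane proteins, had a median of 0.08 with EMC8 higher, at 80.7 and 73.1 CPM in HJJ_3_5 cells, against 47.1 and 45.7 CPM in DMSO cells.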
